A study of Mus musculus with 2 samples.

Results

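The genes described here are 33 genes of DNA replication, found by symbol among the 31053 rows of both count matrices, and all 33 were present. They code for the parts of the machine that copies DNA in S phase, its supply of nucleotides and the packing of the new DNA. The study measured RNA in single cells of mouse colon epithelium in 2 libraries, 1 per group. The GFP library holds sorted GFP-positive cells. Their donors had the genotype c-Kit-creERT2;Rosa26-mTG: a tamoxifen-activated Cre recombinase driven from Kit marks Kit-expressing cells and their progeny with GFP; these mice had 1 intraperitoneal injection of 1 mg tamoxifen per 20 g body weight. The whole epithelium library holds unsorted colonic epithelial cells of c-Kit-creERT2 mice with no treatment, so both groups carry the Kit-driven Cre, and only the GFP group has the reporter, the tamoxifen and the sort. The labels give neither age nor the number of animals behind a library, nor the days between the injection and the sort. The comparison asks what the progeny of Kit-expressing colon cells look like beside the whole epithelium.

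Before DNA is copied, Cdc6 and Cdt1 load the ring of Mcm2 to Mcm7 onto origins, and Cdc45 and the GINS proteins turn that ring into a moving helicase with the help of Mcm10. At the fork, primase makes short primers, replicative polymerases extend them, and the Pcna clamp holds the polymerases on DNA. E2F transcription factors switch on many of these genes before S phase, whereas genes of mitosis are switched on later, often through CCAAT and CHR promoter elements. In the colon, dividing cells sit in the lower crypt, among them stem cells and the transit-amplifying cells (TA) above them, while mature colonocytes and most goblet cells no longer divide.

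The GFP library had 13575 barcodes and 150348319 UMIs (unique molecular identifiers, each standing for 1 captured RNA molecule), against 13967 barcodes and 164185392 UMIs in the whole epithelium library. Cells were kept if they had 500 or more genes, 1000 or more UMIs and no more than 25% mitochondrial UMIs; this retained 5767 GFP and 7762 whole epithelium cells, with medians of 15821 and 14160 UMIs. The epithelial marker Epcam was detected in 99.2% of GFP cells and 97.6% of whole epithelium cells. Neither the GFP reporter nor Cre is among the measured features, so the sort was not checked directly, and Kit itself stood at 7.82 UMIs per 1000000 UMIs (CPM) in GFP cells and 15.2 CPM in whole epithelium cells. The matrices are crossed between the samples' records, and each was given to the sample whose barcode list has its size; every direction below rests on that assignment. The libraries shared 60 barcodes, 19 of them kept in both. Neither group has a second library, so there is no replicate error and no test, and every interval given here is an exact 95% interval that covers counting error only.

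Promoter windows, 250 bases before to 50 bases after the annotated start (RefSeq, GRCm38.p6), were found for 28 of the 33 genes. In the GENCODE annotation Cdc6 starts at 98907801 and Dut at 125247190, both on the plus strand. By that annotation the windows of Cdc6 and Dut lie inside the gene, as do those of Mcm7 and at least 1 window each of Lig1 and Uhrf1. Windows of 5 genes are printed 5′ to 3′ because their genes span the results below. Cdt1 (chr8:122567765-122568064, plus strand), Cdc6 (chr11:98907901-98908200, plus strand) and Mcm6 (chr1:128359656-128359955, minus strand) were among the genes lowest in the GFP library, Pclaf (chr9:65890073-65890372, plus strand) was level in all kept cells and higher in GFP goblet-like cells, and Slbp (chr5:33652525-33652824, minus strand) was the gene lowest in GFP goblet-like cells. Capitals mark matches on either strand to 1 of 4 E2F-type sequences, TTTCCCGC, TTTCGCGC, TTTGCCGC and TTTGGCGC; in Mcm6, a pair of matches overlap.
Cdt1: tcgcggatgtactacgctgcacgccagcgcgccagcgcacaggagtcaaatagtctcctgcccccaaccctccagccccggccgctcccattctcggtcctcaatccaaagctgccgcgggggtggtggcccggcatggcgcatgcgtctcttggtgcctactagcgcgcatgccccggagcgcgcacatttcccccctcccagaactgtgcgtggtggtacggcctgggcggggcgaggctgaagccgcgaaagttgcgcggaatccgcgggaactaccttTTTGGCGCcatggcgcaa
Cdc6: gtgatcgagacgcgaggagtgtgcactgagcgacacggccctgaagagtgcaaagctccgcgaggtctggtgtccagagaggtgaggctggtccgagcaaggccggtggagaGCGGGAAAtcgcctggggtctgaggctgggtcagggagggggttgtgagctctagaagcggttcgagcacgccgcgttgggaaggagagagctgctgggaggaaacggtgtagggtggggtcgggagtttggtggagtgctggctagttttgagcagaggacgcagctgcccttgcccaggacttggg
Mcm6: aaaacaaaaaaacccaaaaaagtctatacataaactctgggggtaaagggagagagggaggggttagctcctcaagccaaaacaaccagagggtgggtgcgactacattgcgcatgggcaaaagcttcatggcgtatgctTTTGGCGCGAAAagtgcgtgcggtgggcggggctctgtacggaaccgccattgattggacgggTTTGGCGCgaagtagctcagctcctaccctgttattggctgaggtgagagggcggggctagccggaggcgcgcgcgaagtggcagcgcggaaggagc
Pclaf: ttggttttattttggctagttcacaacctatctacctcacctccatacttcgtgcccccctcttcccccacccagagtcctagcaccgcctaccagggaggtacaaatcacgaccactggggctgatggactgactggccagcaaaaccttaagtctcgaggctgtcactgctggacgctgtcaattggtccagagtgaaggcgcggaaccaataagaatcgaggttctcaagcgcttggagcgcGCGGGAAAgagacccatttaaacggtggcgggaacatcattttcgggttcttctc
Slbp: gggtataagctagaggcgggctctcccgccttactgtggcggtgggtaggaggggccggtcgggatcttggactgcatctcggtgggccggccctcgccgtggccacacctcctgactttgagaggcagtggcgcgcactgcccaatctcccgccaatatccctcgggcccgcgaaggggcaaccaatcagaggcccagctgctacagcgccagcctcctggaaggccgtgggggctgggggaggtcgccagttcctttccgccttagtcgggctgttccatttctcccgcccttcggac

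At least 1 of these 4 E2F-type sequences occurred in the windows of 12 of the 28 genes (42.9%), against 2.60% of all 27025 genes with a window. The 12 were Mcm3, Mcm5, Mcm6, Mcm7, Rfc3, Lig1, Pold1, Cdt1, Pclaf, Cdc6, Uhrf1 and Pola1. For Mcm7, Lig1, Cdc6 and Uhrf1 the window with the match lies inside the gene by the GENCODE annotation. Another list of replication genes held the E2F-type sequences in 35.3% of 51 windowed genes, and a list of mitosis genes in 6.25% of 32. The CHR element TTTGAA had the opposite spread, with 10.7% of the 28 replication genes, 78.1% of the mitosis genes and 20.2% of all genes. CCAAT stood in 64.3% of the replication genes, 24 of the 32 mitosis genes and 41.1% of all genes. All 3 kinds were searched on both strands, and a match of letters is a description of the window, not of binding.

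In both libraries the 33 genes were highest in cells of the dividing crypt compartment and lowest in colonocytes. Cells were clustered with the 33 genes left out of the variable genes, and clusters were named from fixed markers. Stem/TA-like cells had a summed level of 1711 CPM in the GFP library (867 cells) and 2303 CPM in the whole epithelium library (805 cells). Goblet-like cells had 1057 CPM in GFP (969 cells) and 1005 CPM in whole epithelium (1065 cells), while colonocyte-like cells had 205 CPM (1636 cells) and 220 CPM (2102 cells). Cells of unnamed clusters had 828 CPM in GFP (2080 cells) and 1286 CPM in whole epithelium (3139 cells). They held 15.0% of the GFP library's UMIs of the 33 genes and 42.8% of the whole epithelium library's. Stem/TA-like cells held 46.2% and 37.6%. Each UMI comes from the 3′ end of 1 molecule, so these levels compare between genes without division by length.

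All 33 genes were at least 2-fold higher in stem/TA-like than in colonocyte-like cells, in the GFP library with a median log2 ratio of 3.51 and in the whole epithelium library with 3.88. Over all genes tested the median log2 ratio was 0.58 in GFP and 0.42 in whole epithelium, and 49.7% and 44.9% of genes passed 1.5-fold in that direction, so a higher call by itself was common. Among the widest gaps were those of Pclaf, a small protein that binds the Pcna clamp, with log2 ratios of 4.62 in GFP and 5.89 in whole epithelium, and of the helicase subunit Mcm3, with 4.64 and 4.76. Prim1 (the catalytic primase subunit) had 4.15 and 4.71, Pole (the leading-strand polymerase) 4.24 and 5.03, and Mcm6 4.26 and 4.47 in the same order of libraries, with Pola1 (the primer-extending polymerase) at 3.82 and 4.98.

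A small group kept a sizeable level in colonocyte-like cells. Slbp, which binds histone mRNA, had 33.1 CPM in GFP colonocyte-like cells and 41.9 CPM in whole epithelium ones, and its stem/TA-like over colonocyte-like log2 ratio was 1.22 in GFP and 1.51 in whole epithelium. Rfc2, a clamp loader subunit, had 25.8 and 27.5 CPM there and log2 ratios of 1.43 and 1.72. Pcna had 26.7 and 29.3 CPM there and log2 ratios of 1.58 and 1.75. Rfc3, of the same clamp loader as Rfc2, followed with log2 ratios of 2.23 in GFP and 2.42 in whole epithelium. In both libraries the ratios of Pcna, Rfc2 and Slbp were thus well below those of Mcm3 and Pclaf.

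**Figure D1:**
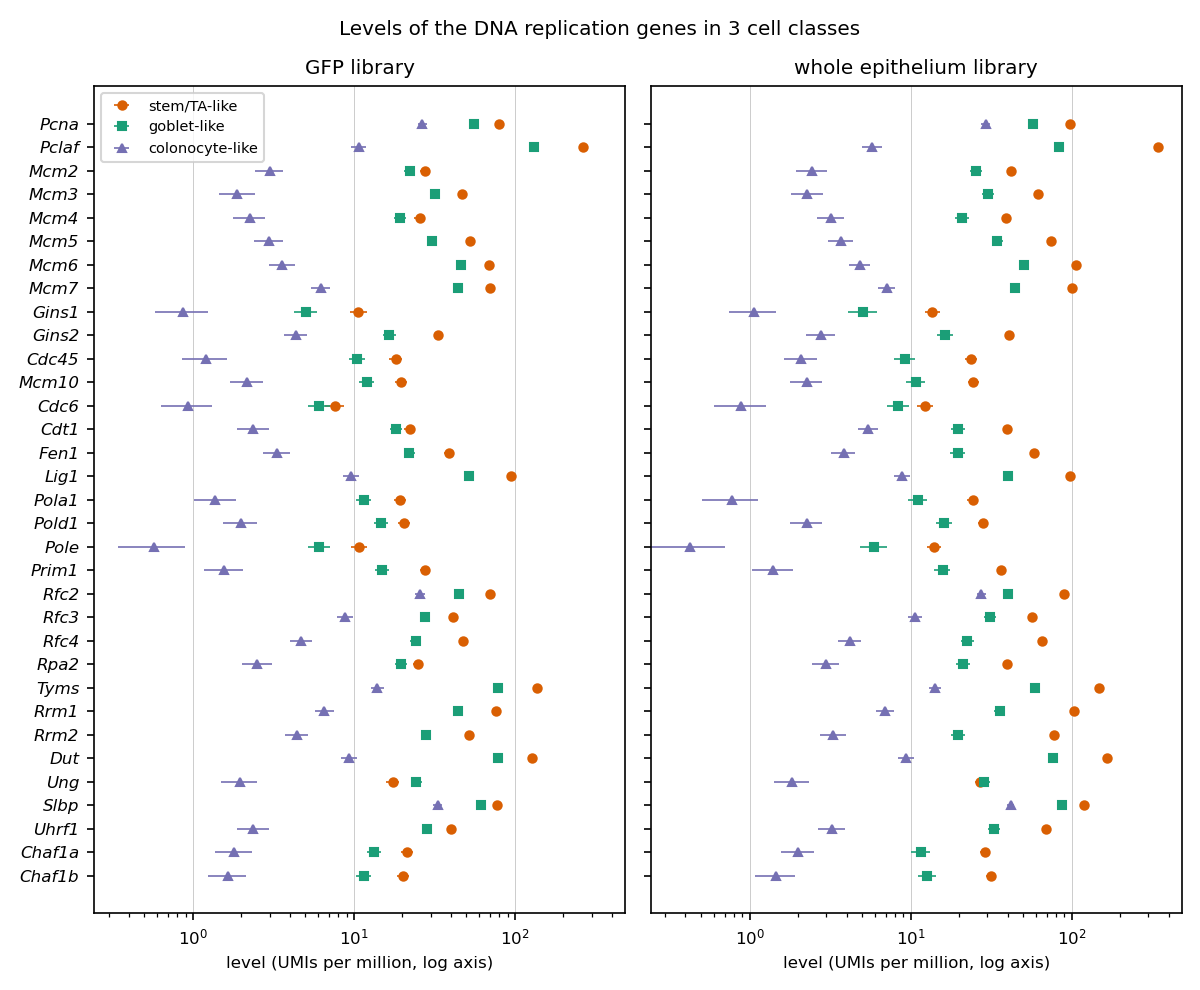
Level of each gene (CPM, log axis) in stem/TA-like, goblet-like and colonocyte-like cells of the GFP library (left) and the whole epithelium library (right); bars are exact 95% counting intervals. Every gene lies further right in stem/TA-like than in colonocyte-like cells, with the narrowest gaps for Slbp, Rfc2 and Pcna, and Ung is the gene whose goblet-like level is above its stem/TA-like level in both libraries.

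Goblet-like cells held the replication genes at an intermediate level. Over colonocyte-like cells, 33 genes were at least 1.5-fold higher in the GFP library and 32 in the whole epithelium library (background 48.3% and 44.3%), with median log2 ratios of 2.89 and 2.65. Over stem/TA-like cells their median log2 ratio was -0.69 in GFP and -1.16 in whole epithelium, and 0 of the 33 were 1.5-fold higher in goblet-like cells in either library (background 11.5% in GFP and 18.4% in whole epithelium). Ung, the glycosylase that removes uracil from DNA, was the exception, with 24.4 CPM in goblet-like and 17.5 CPM in stem/TA-like cells of the GFP library. In the whole epithelium library Ung had 28.5 CPM in goblet-like and 27.1 CPM in stem/TA-like cells, a difference within its counting interval (log2 ratio 0.07, -0.09 to 0.24). The lowest goblet-like over stem/TA-like ratios were those of Gins1 in GFP (-1.08) and Pclaf in whole epithelium (-2.04).

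Summed over all kept cells, the GFP library held less RNA of these genes than the whole epithelium library, 917 CPM against 1162 CPM. Of the 33 genes 31 were lower in GFP, with a median log2 ratio of -0.40 against -0.03 over all 15223 genes tested, and 8 were lower by at least 1.5-fold and 0 higher. Over all genes 16.2% were lower and 7.77% higher by 1.5-fold, so 8 of 33 is above the background share and the list stands out more by its common direction than by its size. A sum over all cells mixes the level per cell with the share of each cell type. The mitosis list moved the other way, with 35 of 36 genes higher in GFP and a median log2 ratio of 0.24. Of a further 63 replication genes 13 were higher and 50 lower (median -0.24), with Timeless (-0.86) and E2f1 (-0.74) lowest and Cdc7 (0.53) and E2f2 (0.37) highest.

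By role, the summed log2 ratio of GFP over whole epithelium was -0.58 for the 3 loading genes, -0.58 for the 4 chromatin genes, -0.56 for the 9 helicase genes, -0.32 for the 10 fork genes, -0.18 for the 5 nucleotide genes and -0.07 for the 2 clamp genes. Cdc6 had 4.70 CPM in GFP cells and 8.16 CPM in whole epithelium cells (log2 ratio -0.80, interval -0.95 to -0.64). Cdt1, its partner in loading the helicase, had 14.1 CPM in GFP and 24.4 CPM in whole epithelium (-0.79, -0.88 to -0.70). Mcm6 had 37.6 CPM in GFP and 61.7 CPM in whole epithelium (-0.72, -0.77 to -0.66). The 9 helicase genes, which are Mcm2 to Mcm7, Gins1, Gins2 and Cdc45, were all lower and summed to 191 CPM in GFP and 281 CPM in whole epithelium, with Gins2 (-0.20) and Cdc45 (-0.36) closest to level. Mcm10 departed from its neighbours in the pathway with 10.5 CPM in GFP and 11.3 CPM in whole epithelium (-0.11).

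Pclaf was the most abundant of the 33, at 117 CPM in GFP and 114 CPM in whole epithelium (log2 ratio 0.03), and Tyms, which makes thymidylate, had 69.7 and 67.5 CPM (0.05). Lig1, the ligase that joins Okazaki fragments, had 47.3 CPM in GFP and 48.4 CPM in whole epithelium (-0.03). Dut, which removes dUTP, had 67.5 CPM in GFP and 83.1 CPM in whole epithelium (-0.30), and Pcna 52.0 and 63.7 CPM (-0.29). Among genes that act on chromatin, Uhrf1, needed for maintenance of DNA methylation, had 21.6 CPM in GFP and 36.8 CPM in whole epithelium (-0.77). Slbp had 56.1 CPM in GFP and 81.4 CPM in whole epithelium (-0.54). The ribonucleotide reductase subunits Rrm1 and Rrm2 had log2 ratios of -0.23 and -0.13, and the uracil glycosylase Ung -0.48.

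**Figure D2:**
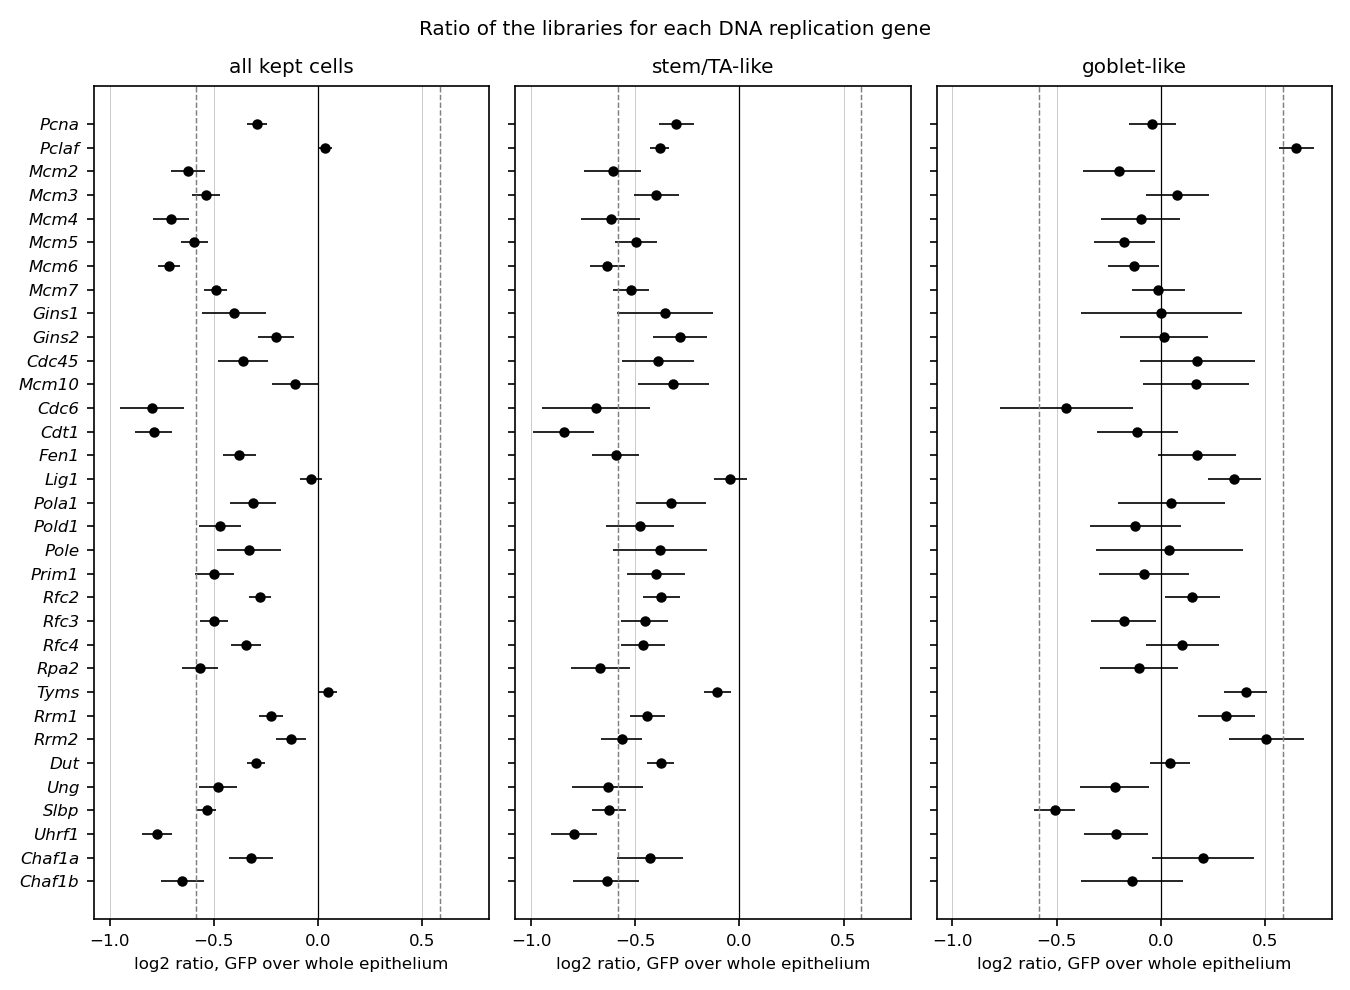
Log2 ratio of GFP over whole epithelium for each gene in all kept cells, stem/TA-like cells and goblet-like cells, with exact 95% counting intervals; dashed lines mark 1.5-fold. In all kept cells 31 of 33 points and in stem/TA-like cells all 33 lie left of 0, while goblet-like cells have 16 points to the right and 17 to the left, with Pclaf furthest right.

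Within stem/TA-like cells all 33 genes were lower in the GFP library, with a median log2 ratio of -0.46 against 0.04 over all genes, and 11 were lower by at least 1.5-fold and 0 higher (background 9.04% lower and 10.7% higher). Cdt1 was lowest, with 22.2 CPM in GFP and 39.9 CPM in whole epithelium (log2 ratio -0.84, -0.99 to -0.70). Uhrf1 had 40.1 and 69.6 CPM (-0.79), Cdc6 7.62 and 12.3 CPM (-0.69), and Rpa2, of the complex that coats single-stranded DNA, 25.1 and 39.8 CPM (-0.67), each with GFP first. Lig1 differed least, with 94.7 CPM in GFP and 97.5 CPM in whole epithelium (-0.04), followed by Tyms with 138 and 148 CPM (-0.11), Gins2 with -0.29 and Pcna with -0.30. Pclaf had 263 CPM in GFP and 343 CPM in whole epithelium, and Dut had 127 and 165 CPM. In this class the mitosis list was lower in GFP as well, in 36 of 36 genes (median -0.32).

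That class was built from different clusters in each library, which matters for its values. GFP stem/TA-like cells were cluster 11 (482 cells, 1403 CPM of the 33 genes) and cluster 15 (385 cells, 2003 CPM). Whole epithelium stem/TA-like cells were cluster 14 (423 cells, 2058 CPM) and cluster 16 (382 cells, 2646 CPM), whose top genes include Cxcl9 and MHC class II genes. Clusters 14 and 15 are each led by mitosis genes, which also helped to define them. Between these 2 clusters the replication genes differed little, with 10 of 33 higher and 23 lower in GFP, a median log2 ratio of -0.07 and 0 past 1.5-fold in either direction. These counts have no share over all genes beside them. Lig1 had 115 CPM in GFP cluster 15 and 86.8 CPM in whole epithelium cluster 14 (0.41), and Slbp 81.4 and 114 CPM (-0.49). The lower class value in GFP thus came with the other clusters of the class, 11 in GFP and 16 in whole epithelium. By the top genes given below, cluster 11 resembles unnamed whole epithelium cluster 5 (1474 CPM), which lies outside the class. The class ratio therefore depends on which clusters took the name.

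The libraries differed most in cells that held replication genes and little mitosis RNA. Cluster 8 of the whole epithelium library (511 cells) had 2167 CPM of the replication genes and 631 CPM of the mitosis list, against 2058 and 5235 CPM in cluster 14 of the same library. Of the marker classes it scored highest on stem, with Lgr5 at 24.4 CPM, and stayed unnamed because its top 10 genes hold Cd44, which the fixed lists place among deep crypt secretory markers although other crypt cells also express it, and no stem marker. Globins and Sst are also among its top genes, and Sst and Cd44 are among those of cluster 16. Cluster 5 of the same library (637 cells, led by Trf, Ttr, Nxpe2 and Fut9) had 1474 CPM of the replication genes and 328 CPM of the mitosis list. GFP cluster 11, with Trf, Ttr, Nxpe2 and Fut9 among its own top genes, had 1403 CPM and 2119 CPM. The unnamed GFP cluster of similar depth, cluster 7 (560 cells, led by Gsdmc genes and Pla2g4c), had 824 and 417 CPM. With Lgr5 at 0.853 CPM, against 12.0 CPM in cluster 5, cluster 7 was not matched to clusters 5 and 8 by that marker. Another unnamed whole epithelium cluster, cluster 9 (491 cells), was below cluster 7, with 432 CPM of the replication genes and 263 CPM of the mitosis list.

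The make-up of the replication RNA differed between those cells too. In cluster 8 the ring subunits Mcm2 to Mcm7 and the loaders Cdt1 and Cdc6 were higher than in the mitosis-led cluster 14, with Mcm6 at 150 CPM, Mcm2 at 63.5 CPM, Cdt1 at 59.97 CPM and Cdc6 at 20.8 CPM, against 77.7, 29.4, 26.4 and 9.24 CPM in cluster 14. The other helicase and loading genes did not share this, with Cdc45 at 21.3 and 22.7 CPM, Gins2 at 35.0 and 38.3 CPM and Mcm10 at 20.1 and 22.3 CPM in clusters 8 and 14, apart from Gins1 at 15.1 and 11.01 CPM. Rrm1, Rrm2, Tyms and the clamp-binding Pclaf were lower in cluster 8, at 66.9, 38.1, 95.2 and 166 CPM, against 105, 82.3, 162 and 335 CPM in cluster 14. The remaining nucleotide genes were level or higher there, with Dut at 148 and 149 CPM and Ung at 50.3 and 12.3 CPM in clusters 8 and 14. Cluster 16, with 2776 CPM of the mitosis list, combined both sets, with Mcm6 at 149 CPM, Cdt1 at 58.7 CPM, Rrm2 at 70.3 CPM and Pclaf at 354 CPM. Cluster 11, the GFP stem/TA-like cluster with the lower mitosis level, had Mcm6 at 69.1 CPM, Cdt1 at 23.3 CPM, Rrm2 at 34.9 CPM and Pclaf at 150 CPM, so no GFP cluster shown here reached the Mcm6 or Cdt1 level of clusters 8 and 16.

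**Figure D3:**
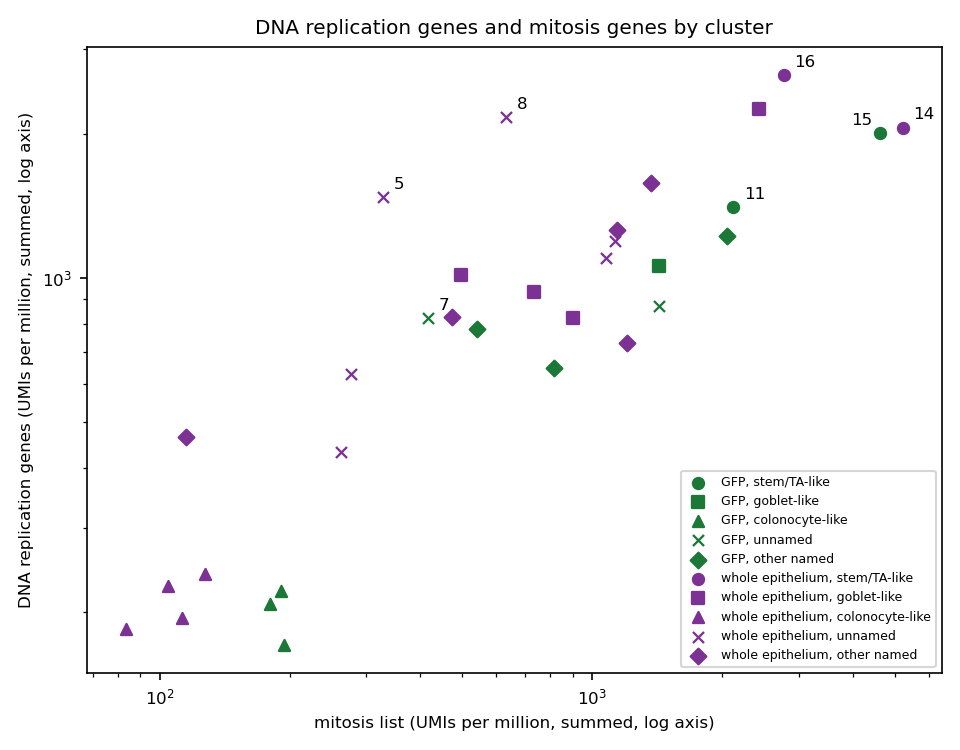
Summed level of the 33 replication genes against that of the mitosis list (both CPM, log axes), 1 point per cluster and library with 20 or more cells; numbers name the clusters described in the text. Whole epithelium clusters 5 and 8 lie above GFP cluster 7, at mitosis levels of 328, 631 and 417 CPM. Unnumbered whole epithelium cluster 9 lies below cluster 7, at 263 CPM. The mitosis-led clusters 15 (GFP) and 14 (whole epithelium) lie side by side.

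The same pattern was read cell by cell, without clusters. Cells with at least 5000 UMIs were thinned to 5000, which left out 1804 GFP and 2402 whole epithelium cells, and a cell was called mitosis-high with at least 5 UMIs of the mitosis list and mucin-high with Muc2, the main goblet cell mucin, at 50 or more per 10000 UMIs. At least 5 of the 33 genes were detected in 22.9% of 3963 GFP cells and 30.3% of 5360 whole epithelium cells. Of the cells with at least 5, 70.0% (66.9 to 73.0) were mitosis-high in GFP and 49.4% (47.0 to 51.9) in whole epithelium. Cells with at least 5 of the genes that were mitosis-low made up 6.86% of GFP cells (6.10 to 7.70) and 15.3% of whole epithelium cells (14.3 to 16.3).

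Among mucin-low, mitosis-low cells, 8.24% of 2378 GFP cells (7.17 to 9.42) and 20.4% of 3675 whole epithelium cells (19.1 to 21.7) had at least 5 of the genes. All 33 genes were lower per cell in GFP in this gate, with a median log2 ratio of -0.999. Thinned counts were taken for the 33 genes and the mitosis list only, so no gate count has a share over all genes beside it. Prim1 (-1.69), Mcm5 (-1.52), Mcm4 (-1.36) and Mcm3 (-1.36) were lowest, and Rrm2 (-0.20), Rfc2 (-0.37), Mcm10 (-0.42) and Pclaf (-0.45) were closest to level. Of the 750 such whole epithelium cells, 223 belonged to cluster 8, 203 to cluster 5 and 90 to cluster 16, and of the 196 GFP cells, 91 belonged to cluster 7 and 62 to cluster 11. The gate mixes cell types, so these values also depend on their shares. Colonocyte-like cells were 1508 of the 3963 thinned GFP cells and 1615 of the 5360 whole epithelium ones. Few of them were mitosis-high (1.72% in GFP and 1.11% in whole epithelium). The part of cell type shares in the gap was not tested. Among mucin-low, mitosis-high cells the shares were close, at 64.1% of 793 GFP cells (60.6 to 67.4) and 67.7% of 1112 whole epithelium cells (64.9 to 70.5), although 29 of the 33 genes were lower in GFP (summed log2 ratio -0.16).

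Colonocyte-like cells give the background of these shares, with at least 5 of the genes in 0.995% of 1508 GFP cells and 1.30% of 1615 whole epithelium cells, at median depths before thinning of 19452 and 18373 UMIs. Mitosis RNA in the same colonocyte-like cells was 0.881 UMIs per thinned cell in GFP and 0.546 in whole epithelium, and 202 GFP and 356 whole epithelium cells lay at 4 or 5 mitosis UMIs, next to the threshold. T/NK-like cells of the whole epithelium library, which are immune cells, had at least 5 of the genes in 46.4% of 97 cells. Genes of dissociation stress moved with the libraries as well, with 15 of 16 lower in GFP over all kept cells (summed 6023 CPM in GFP and 10958 CPM in whole epithelium), and their part in the result was not tested.

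In each library mitosis-high cells held more of every gene than mitosis-low cells. Among mucin-low cells all 33 were higher in mitosis-high cells, by a median log2 ratio of 2.42 in GFP and 1.63 in whole epithelium. The share of all genes higher in mitosis-high cells was not computed, so how far this is particular to the 33 is not known. Pclaf had the widest gap in both, with 1566 UMIs per 1000 thinned mitosis-high cells and 106 per 1000 mitosis-low cells in GFP (log2 ratio 3.89), and 1538 and 144 in whole epithelium (3.41). Cdt1 had 127 and 41.2 UMIs per 1000 cells in GFP (1.63) and 195 and 91.7 in whole epithelium (1.09). The narrowest gaps were those of Rfc2 in GFP (1.09) and Ung in whole epithelium (0.82). Among mucin-high cells the genes with enough UMIs, 30 in GFP and 29 in whole epithelium, were all higher in mitosis-high cells (median log2 ratios 1.40 and 1.32). Several of their intervals included 0, among them Ung in GFP (0.09, -0.55 to 0.69) and Mcm2 in whole epithelium (0.09, -1.01 to 1.07).

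**Figure D4:**
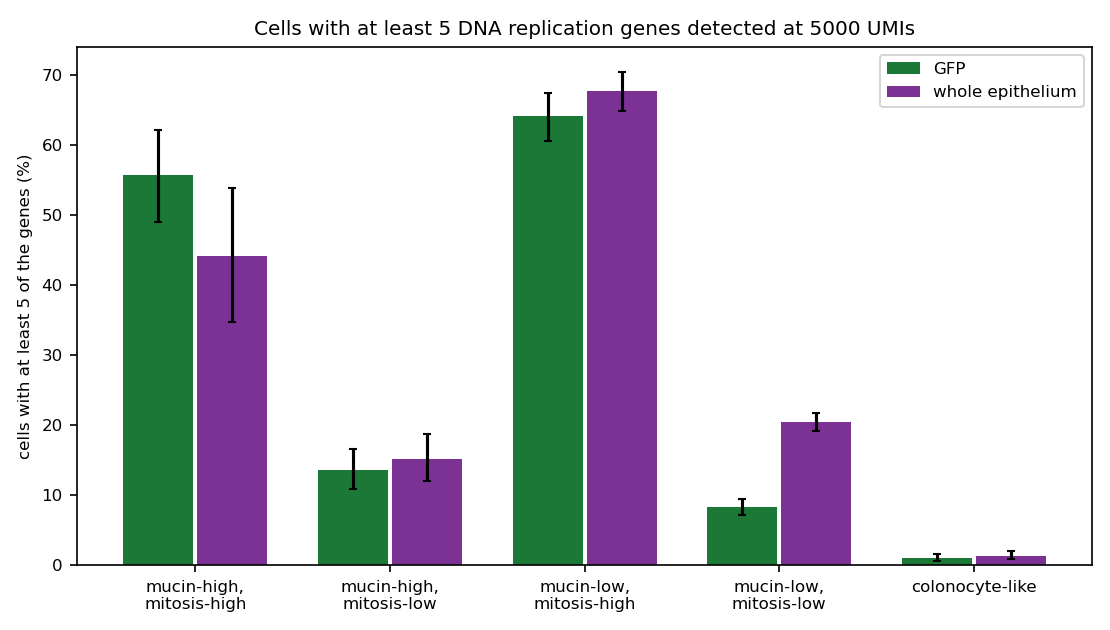
Share of cells with at least 5 of the 33 genes detected after thinning to 5000 UMIs, by mucin and mitosis gate and in colonocyte-like cells, for the GFP library (left bar of each pair) and the whole epithelium library (right bar); error bars are exact 95% binomial intervals. The libraries are furthest apart in mucin-low, mitosis-low cells, at 8.24% in GFP and 20.4% in whole epithelium. In mucin-high, mitosis-high cells GFP is the higher, at 55.7% against 44.1%, with overlapping intervals.

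Goblet-like cells did not share the deficit. There 16 genes were higher and 17 lower in GFP, with a median log2 ratio of -0.00, and 1 was higher by 1.5-fold and 0 lower (background 7.98% higher and 10.4% lower). Pclaf had 131 CPM in GFP and 83.7 CPM in whole epithelium (0.65, 0.57 to 0.74), Rrm2 28.1 and 19.8 CPM (0.51), Tyms 78.04 and 58.8 CPM (0.41) and Lig1 51.6 and 40.4 CPM (0.35). Slbp was lowest, with 61.6 CPM in GFP and 87.7 CPM in whole epithelium (-0.51, -0.61 to -0.41), then Cdc6 with 6.09 and 8.34 CPM (-0.45), Ung (-0.22) and Uhrf1 (-0.21). Dut and Pcna, also among the most abundant, differed little, with 78.9 and 76.4 CPM for Dut and 55.9 and 57.4 CPM for Pcna, GFP first. The mitosis list was higher in GFP goblet-like cells in 36 of 36 genes, 33 of them by 1.5-fold (median 0.92), led by Tpx2 (1.14) and Cenpe (1.14). Goblet-like cells were cluster 2 in GFP and mainly clusters 10, 19 and 21 in whole epithelium, which had 931, 823 and 1011 CPM of the replication genes against 1057 CPM in the GFP cells of cluster 2. A further 24 whole epithelium cells, at a median of 38697.5 UMIs, fell in cluster 2. They had 2254 CPM of the replication genes and 2430 CPM of the mitosis list, and they count in the class values above.

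By the mucin gate, 25.8% of 792 GFP cells (22.7 to 29.0) and 20.8% of 573 whole epithelium cells (17.5 to 24.3) had at least 5 of the genes, and these intervals overlap. Mitosis-high cells were 29.0% of the GFP mucin-high cells and 19.4% of the whole epithelium ones. Within mucin-high, mitosis-high cells the shares with at least 5 genes were 55.7% of 230 in GFP (49.0 to 62.2) and 44.1% of 111 in whole epithelium (34.7 to 53.9). Within mucin-high, mitosis-low cells they were 13.5% of 562 in GFP and 15.2% of 462 in whole epithelium. At the gate's edge, 81 GFP and 109 whole epithelium cells had Muc2 within 40 to 60 per 10000. Summed over the genes, mucin-high, mitosis-low cells were lower in GFP (log2 ratio -0.16, -0.27 to -0.05), with 18 of 31 genes lower, a count without a share over all genes beside it. Mucin-high, mitosis-low cells with at least 5 of the genes made up 9.60% of GFP mucin-high cells (7.64 to 11.9) and 12.2% of whole epithelium ones (9.65 to 15.2). With at least 8 of the genes they made up 2.90% in GFP (1.85 to 4.33) and 5.06% in whole epithelium (3.42 to 7.19). The intervals overlap at both cuts. Of the mucin-high cells with at least 5 of the genes, 62.7% were mitosis-high in GFP (55.7 to 69.4) and 41.2% in whole epithelium (32.2 to 50.6). By this measure, though not clearly by the share of all mucin-high cells, a gap was present here too, but other cells lay behind it. Mucin-high, mitosis-high cells with at least 5 of the genes were 128 of 792 in GFP and 49 of 573 in whole epithelium. Over all cells, mitosis-high cells with at least 5 were close, at 636 of 3963 in GFP and 802 of 5360 in whole epithelium. There it was the mitosis-low cells that differed. In goblet-like clusters the share with at least 5 of the genes was 30.7% of 886 GFP cells (27.7 to 33.9) and 23.2% of 750 whole epithelium cells (20.2 to 26.4), and these intervals do not overlap.

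Colonocyte-like cells had 12 genes higher and 21 lower in GFP, with a median log2 ratio of -0.09 against -0.06 over all genes, and 3 were higher and 2 lower by 1.5-fold (background 8.82% and 12.4%). Levels were low there, and the counts behind single genes small. Cdt1 was lowest, with 79 UMIs (2.37 CPM) in GFP and 190 UMIs (5.44 CPM) in whole epithelium (-1.20, -1.60 to -0.81). Pclaf was highest, with 358 UMIs (10.7 CPM) in GFP and 202 UMIs (5.78 CPM) in whole epithelium (0.89, 0.64 to 1.15). The mitosis list was higher in GFP in 36 of 36 genes in these cells as well (median 0.88), so Pclaf and the mitosis genes were higher in GFP in goblet-like and colonocyte-like cells alike. Whether RNA free in the suspension contributes to these low levels was not tested.

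**Figure D5:**
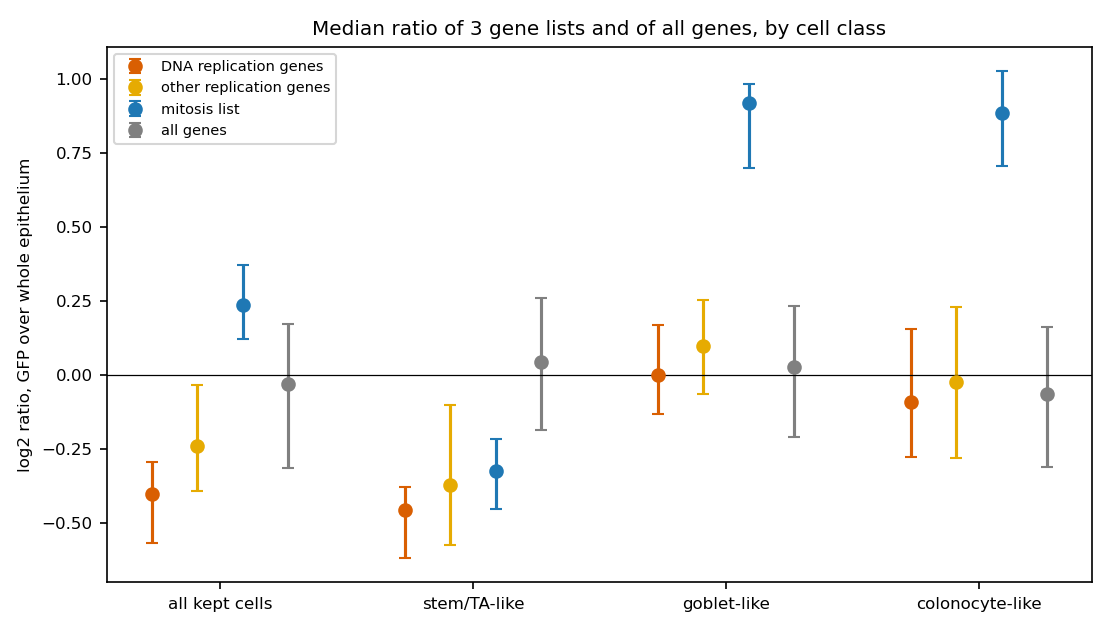
Median log2 ratio of GFP over whole epithelium for the 33 replication genes, the other replication genes, the mitosis list and all genes tested, in 4 cell groups; bars span the lower to the upper quartile of the genes. The replication and mitosis lists lie on opposite sides of 0 in all kept cells (-0.40 and 0.24), both below 0 in stem/TA-like cells (-0.46 and -0.32), and apart again in goblet-like cells (-0.00 and 0.92).

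Rarer classes gave wider intervals. Enteroendocrine-like cells had 779 CPM of the 33 genes in GFP (111 cells) and 791 CPM in whole epithelium (330 cells), with 11 higher and 17 lower of the 28 genes with enough UMIs. Tuft-like cells had 1223 CPM in GFP (44 cells, 1148 to 1303) and 1573 CPM in whole epithelium (43 cells, 1472 to 1680). T/NK-like cells had 648 CPM in GFP (58 cells, 528 to 788) and 1257 CPM in whole epithelium (250 cells), at medians of 1938.5 and 4226 UMIs per cell. Goblet markers summed to 13160 CPM and T/NK markers to 2792 CPM in the GFP cells of that class, against 2092 and 10747 CPM in the whole epithelium ones, and the part of this in the difference was not tested. Among inhibitors of cyclin-dependent kinases and related genes, Cdkn1c (-1.01) and Cdkn2b (-0.82) were lowest in GFP over all kept cells, and 9 of 13 were lower, with Rb1 at 0.12 and Cdkn2a higher on 38 UMIs in GFP and 4 in whole epithelium.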

How the data were processed

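RNA was counted per gene and cell in 2 libraries of mouse colon epithelium, 1 per group, by 10x Genomics droplet capture (3′ v2), per the labels' protocols. The deposited values are raw UMI counts, not normalised. The submitters' processing notes name Cell Ranger 2.1.1 and mm10; the matrix headers give 3.1.0, a discrepancy that stands unexplained. How reads shared with pseudogenes, which Pcna and Tyms have, were counted is not given in the sources used here.

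Cells were filtered as stated in the report, scaled to 10000 UMIs, log-transformed and clustered with scanpy 1.11.5 and leidenalg 0.10.2 (2000 variable genes without the 33 genes, 30 components, 15 neighbours, resolution 1.0), giving 29 clusters, 25 of them over 95% from 1 library. A cluster took the marker class with the highest mean log2 fold over the median cluster of its library, with at least 3 markers raised 2-fold; stem and cycling clusters were joined, as were goblet and deep crypt secretory ones. For clusters with a median UMI count below 1 part in 3 of their library's, the score needed was raised to 2.5 after the data were seen, which left 26.0% of GFP and 16.8% of whole epithelium cells unnamed as shallow. No doublet caller was run, and doublets were kept. UMIs were summed per class and library and divided by the total (CPM); a gene needed at least 20 UMIs over both libraries. Ratios have exact conditional binomial intervals, shares Clopper-Pearson intervals, computed with scipy 1.17.1, and the ratio script was tested on simulated data. Genes named are the 5 highest in CPM, the 4 highest and 4 lowest in ratio per main class, the 5 highest and lowest of stem/TA-like over colonocyte-like, genes of set roles and the 2 extremes of each list; values given for single clusters and gates were chosen after they were seen. The 33 genes and the lists were chosen with earlier results of these data known.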

Additional observations from a re-analysis of the deposited data

Results flagged for a closer look

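Barcodes outside the filter, which no comparison used, also held RNA of the 33 genes. It came to 347 CPM (341 to 353) in the 7808 GFP barcodes left out and 372 CPM (364 to 379) in the 6205 whole epithelium barcodes left out. Whether RNA free in the suspension contributes to it was not tested. All 7808 GFP barcodes and 5333 of the whole epithelium ones exceeded 25% mitochondrial UMIs. Kept cells held 917 CPM in GFP and 1162 CPM in whole epithelium. Per 1000000 non-mitochondrial UMIs the barcodes left out held 641 in GFP and 632 in whole epithelium, so the order of the libraries in these barcodes depends on the denominator, while in kept cells it stayed the same (1013 in GFP and 1273 in whole epithelium).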

How the results depend on the processing

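No paired analysis was possible because each group has 1 library, and for the same reason no replicate could be left out. Over all kept cells 29 of the 31 lower genes kept their sign in every alternative run, against 23 of 33 in stem/TA-like cells, 7 of the 17 lower and 13 of the 16 higher genes in goblet-like cells, and 10 of the 21 lower and 3 of the 12 higher genes in colonocyte-like cells. Runs that changed only the UMIs needed per gene are among these, and they could not change a sign. Over all kept cells the median log2 ratio was -0.33 with at most 10% mitochondrial UMIs, -0.42 with at least 5000 UMIs per cell, -0.42 with equal weight per cell and -0.37 when centred on the median gene. In stem/TA-like cells the median was -0.42 (7 genes 1.5-fold lower) with at most 10% mitochondrial UMIs, -0.49 with equal weight, -0.50 when centred, -0.34 at clustering resolution 2.0, -0.76 (26 lower) at resolution 0.5, -0.28 with the 33 genes kept among the variable genes and -0.28 (6 lower) with the mitosis and replication lists left out. Alternatives chosen after seeing the data gave -0.0708 (0 lower) for the mitosis-led clusters alone, where Ung reversed to 0.38, -0.41 with cluster 8 added and -0.57 with clusters 5, 7 and 8 added. In goblet-like cells the median was -0.0419 with at most 10% mitochondrial UMIs, -0.0380 with at least 5000 UMIs, 0.20 (0 genes 1.5-fold higher) with equal weight, -0.0268 when centred and -0.0270 (2 higher) without the lists. In colonocyte-like cells it was -0.0151 (4 lower) with at most 10% mitochondrial UMIs, -0.15 (4 lower, Pola1 reversed to -0.15) with equal weight, -0.0266 when centred, -0.00932 (1 lower) at resolution 2.0, -0.36 (0 higher, 8 lower) at resolution 0.5, -0.18 with the 33 genes kept and reversed to 0.0028 (1 lower) without the lists. The cause of these moves was not tested. The share of mucin-high cells with at least 5 of the genes was 47.9% in GFP and 42.4% in whole epithelium when thinned to 10000 UMIs, and 30.7% in GFP and 23.2% in whole epithelium for goblet-like clusters in place of the gate. The share of cells with at least 5 genes and mitosis-low, in GFP and whole epithelium, was 2.95% and 8.92% with at least 8 genes, 3.94% and 10.7% with mitosis-high from 3 UMIs, 10.5% and 21.4% from 10 UMIs, 9.14% and 18.6% with at most 10% mitochondrial UMIs, and 13.8% and 25.1% when thinned to 10000 UMIs; these were also chosen after seeing the data, and GFP was lower in each.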
